A study of Mus musculus with 15 samples.

Results

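The enzymes described here make and use glutathione, reduce aldehydes and ketones, and remove peroxides and superoxide. They were taken as the genes whose only symbol in the annotation of the array names a glutathione S-transferase (Gsta, Gstk, Gstm, Gsto, Gstp, Gstt or Gstz), a glutathione peroxidase, a peroxiredoxin, a thioredoxin or thioredoxin reductase, a superoxide dismutase or an aldo-keto reductase (Akr), together with Gclc, Gclm, Gss, Gsr, Cat and Nqo1. This gave 60 of the 19938 genes measured. The rule uses names and no measured values, although the families were picked with earlier results of these data known. They were read in freshly sorted microvascular endothelial cells, the cells that line the small vessels, of mouse liver, heart and brain, with 5 arrays for each tissue. All mice carried the Tie2-GFP transgene on the FVB background, were 8 to 12 weeks old and entered the pools as males and females in equal number. The transgene places green fluorescent protein under the promoter of Tek (Tie2), an endothelial receptor, and cells were sorted on that fluorescence, so any other cell in which the promoter is active could enter the gate. RNA was pooled from 2 mice for each liver sample, 4 for each heart sample and 6 for each brain sample. Dispase at room temperature was used for liver and was followed by a slow spin against hepatocytes and a density gradient. Heart was digested with collagenase at 37 °C, and brain with collagenase and DNase at 37 °C, then briefly with trypsin, with 60 min of the main digestion in each tissue. The tissue therefore cannot be told apart from its enzyme, its temperature of digestion or its pool size. No agent was given, so every comparison is between tissues.

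Glutathione is a small thiol peptide that is made in the cytosol from glutamate, cysteine and glycine. Transferases join it to reactive compounds, peroxidases use it to reduce peroxides, and glutathione reductase restores it with NADPH, while the thioredoxin and peroxiredoxin system removes peroxides through protein thiols. Aldo-keto reductases turn aldehydes, ketones and steroids into alcohols, and many genes of all these families are known targets of the transcription factor Nrf2 (gene Nfe2l2), which Keap1 holds in check. Liver sinusoidal cells, brain capillaries and heart capillaries meet different loads of dietary compounds, lipids and oxygen, and the liver is the tissue in which these families are best known.

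Values are log2 expression as deposited, differences are in log2 units with the standard error (SE) of a linear model fitted with limma to all genes, and a gene was called when its Benjamini-Hochberg adjusted p over all genes of a contrast was under 0.05. Values of single arrays are given in the order of replicates 1 to 5. The 14 endothelial markers measured averaged 10.49 to 10.69 on the liver arrays, 10.48 to 10.60 on the heart arrays and 10.54 to 10.87 on the brain arrays, and arrays of one tissue correlated across genes at r = 0.978 to 0.993. Single endothelial markers did differ. Against heart, 5 of the 14 were called higher in liver and 4 lower (all genes 16.3% and 11.5%). Against brain, 3 were called higher in liver and 5 lower (all genes 14% and 11.1%). Tek itself was lower in heart than in both other tissues. Markers of other cells were present too. The mean of 15 Kupffer cell and macrophage markers was 7.84, 6.01, 8.36, 8.03 and 5.66 on the 5 liver arrays, against 5.29 to 5.54 in heart and 5.23 to 5.40 in brain, so liver replicates 1, 3 and 4 stood well above liver replicates 2 and 5. Of these 15 markers, 12 were higher in liver than in both other tissues. The mean of 15 hepatocyte markers was 6.86, 6.96, 6.77, 6.61 and 7.38 on the liver arrays, against 5.08 to 5.17 in heart and 5.51 to 5.66 in brain, and 11 of the 15 were higher in liver than in both. Albumin (Alb), the defining hepatocyte gene, averaged 9.88 ± 0.37 in liver, 4.26 ± 0.19 in heart and 4.19 ± 0.07 in brain. All 16 cardiomyocyte markers were higher in heart, with array means of 7.59 to 9.18 there, against 5.57 to 5.78 in liver and 5.78 to 6.00 in brain, and heart replicates 1 and 3 were the highest. Of 11 fibroblast markers 7 were higher in heart, pericyte and smooth muscle markers ranged over 5.90 to 6.05 in liver, 6.52 to 7.89 in heart and 6.06 to 7.71 in brain, and choroid plexus markers over 5.88 to 6.32 in liver, 5.45 to 5.62 in heart and 6.97 to 8.08 in brain, highest in brain replicate 1. In bulk samples such as these, fewer cells of a type and less RNA per cell cannot be told apart. The labels do not say that the pools came from separate days or litters, so p-values measure the spread between these samples.

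Liver endothelium was the tissue in which the most members stood above both others. Of the 60 members, 18 (30%) were higher in liver than in both other tissues, where 10.4% of all genes were, and 4 (6.67%) were lower in liver than in both, where 5.64% of all genes were. The 18 were Gclc and Gsr of glutathione synthesis and reduction, the transferases Gsta3, Gstm2, Gstp1, Gstp3, Gstk1 and Gsto1, the peroxide-reducing Gpx4, Prdx1, Prdx4 and Txnrd1, the quinone reductase Nqo1, and the aldo-keto reductases Akr1b8, Akr1b10, Akr1c6, Akr1c13 and Akr1c20. The 4 were Akr1c14, Gpx8, Gsta4 and Gstm1. Markers of macrophages and hepatocytes were higher in liver too, and the part of hepatocytes in these counts was not tested. Heart was higher than both for 4 members (6.67%, all genes 3.73%) and lower than both for 6 (10%, all genes 3.27%), and brain was higher than both for 5 (8.33%, all genes 4.7%) and lower than both for 3 (5%, all genes 2.82%). By pairs, liver minus heart was called higher for 24 members (40%, all genes 16.3%) and lower for 9 (15%, all genes 11.5%). Liver minus brain was called higher for 20 (33.3%, all genes 14%) and lower for 10 (16.7%, all genes 11.1%). Heart minus brain was called higher for 6 (10%, all genes 7.11%) and lower for 10 (16.7%, all genes 8.29%). The share higher in liver than in both was well above the share over all genes. So was the share lower in heart than in both, which rests on 6 members. The share lower in liver lay near that of all genes. Without heart replicates 1 and 3, the highest in cardiomyocyte markers, heart was higher than both for 3 members (all genes 3.13%) and lower than both for 4 (all genes 2.71%); the part of those cells was not tested. The contrasts share arrays in pairs, so these counts are not independent of each other.

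The typical difference of a member was also larger than that of a gene at large. The median absolute difference over the 60 members was 0.40 for liver minus heart, 0.41 for liver minus brain and 0.18 for heart minus brain, against 0.16, 0.14 and 0.13 over all genes. Signed medians over the members were 0.19, 0.09 and -0.01, against -0.03, 0.00 and 0.03 over all genes. In any of the 3 contrasts, 39 members (65%) were called, where 37.8% of all genes were, and 17 (28.3%) were called with a difference of at least 1 log2 unit, where 10.2% of all genes were. With that size rule in both contrasts, 10 members were higher in liver than in both (all genes 2.69%) and 2, Akr1c14 and Gsta4, were lower (all genes 1.46%). Heart was higher than both for Akr1c19 (all genes 0.908%) and lower for 0 members (all genes 0.311%), and brain was higher for Gsta4, Gstm5 and Gstm7 (all genes 1.56%) and lower for Akr1c19 (all genes 0.652%). By pairs with the size rule, liver minus heart was called higher for 11 members (all genes 3.68%) and lower for 4 (all genes 2.83%), liver minus brain higher for 11 (all genes 3.89%) and lower for 4 (all genes 3.49%), and heart minus brain higher for 1 (all genes 1.74%) and lower for 3 (all genes 2.12%). With only liver replicates 2 and 5, the arrays low in macrophage markers, kept in liver, a choice made after seeing the data, 14 members were higher in liver than in both, where 6.08% of all genes were. All 14 were among the 18, and Gclc, Gsr, Gpx4 and Akr1c20 were lost. When arrays were centred on the endothelial markers, which moved the median of all genes to -0.09, 0.16 and 0.25 in the 3 contrasts, heart minus brain was called higher for 17 members (all genes 30.2%) and lower for 9 (all genes 4.57%). Liver minus brain was then called higher for 24 (all genes 21.7%) and lower for 5 (all genes 6.92%). Liver was higher than both for 17 (all genes 10.2%), of which 16 were among the 18, while Gclc and Txnrd1 were lost and Akr1e1 was gained. Of the 60 members, 16 had a mean level over all arrays under 5.34, a limit under which 1 in 3 of all genes lay. The median of all genes was 6.11, and members were not under that limit more often than all genes.

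**Figure D1:**
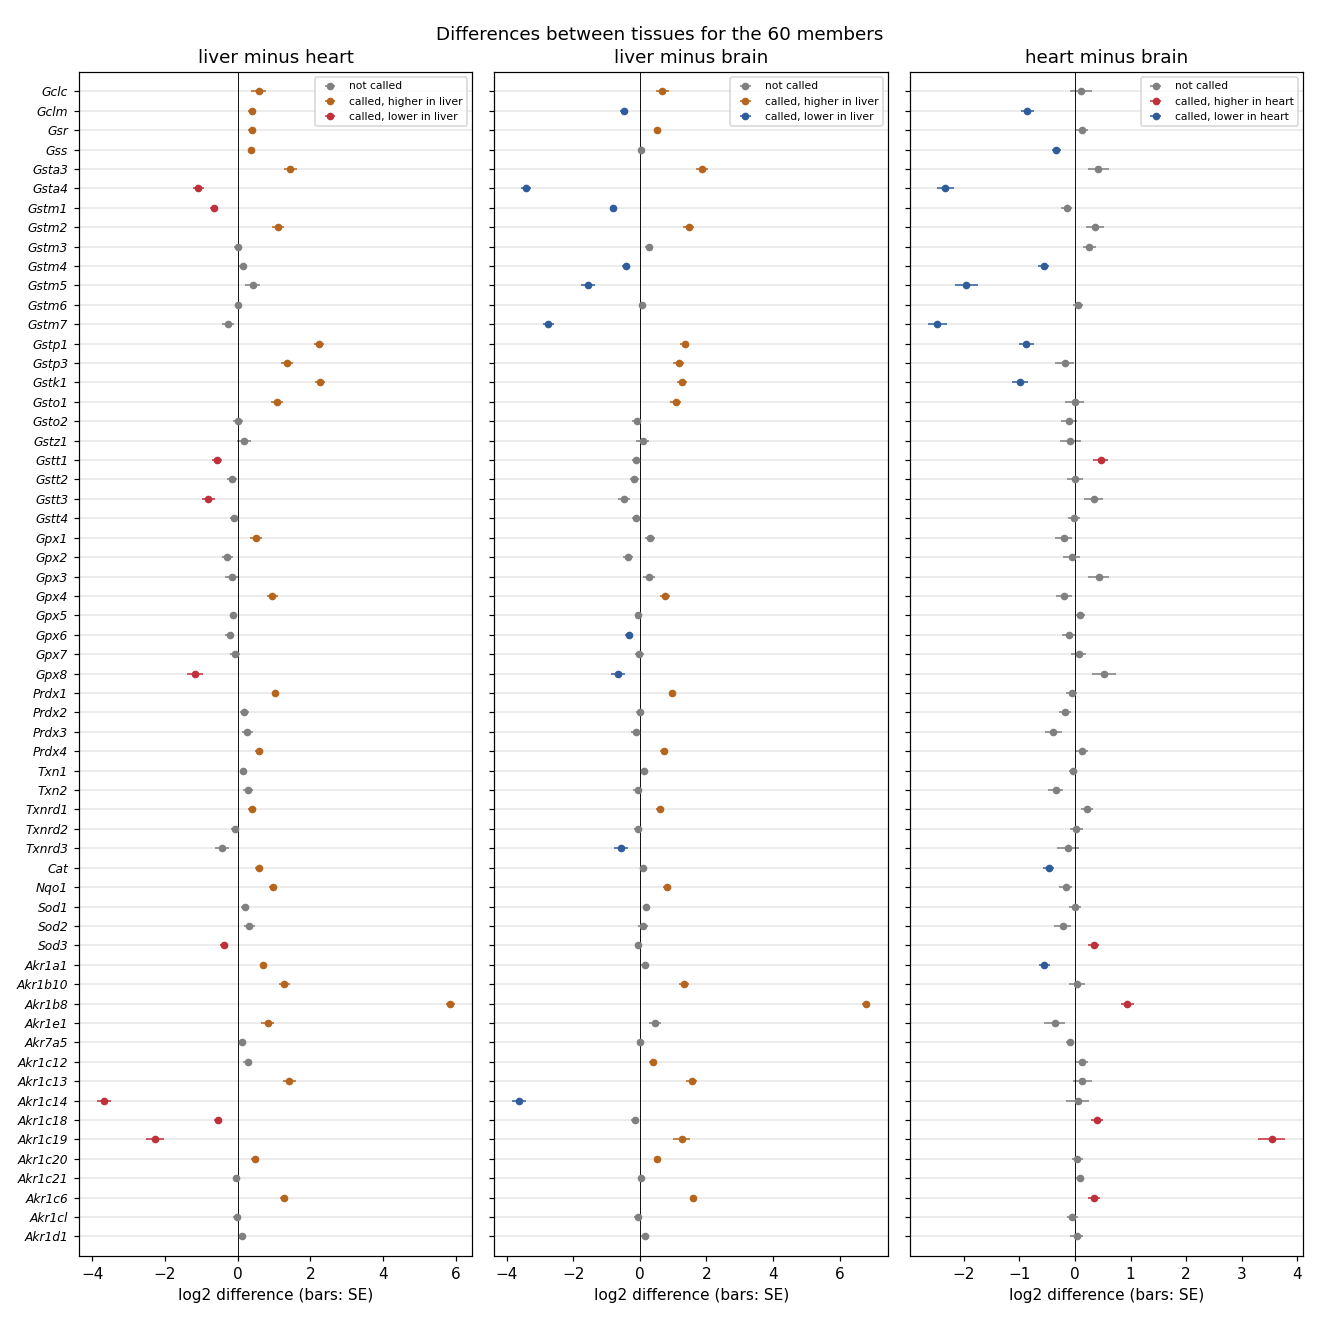
Log2 differences with their standard errors (horizontal bars) for the 60 members in the 3 contrasts, liver minus heart, liver minus brain and heart minus brain, with coloured points for members called at an adjusted p under 0.05 and grey points for the rest. Akr1b8 lies farthest to the right in both liver contrasts, Akr1c14 and Gsta4 lie to the left, and Akr1c19 is the member farthest to the right in heart minus brain.

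The start regions of the members were searched for the antioxidant response element, the site that Nrf2 and small Maf proteins are known to bind. The letters searched were TGACNNNGC on both strands, in windows of 250 bases before to 50 bases after each annotated start in RefSeq, build GRCm38.p6. A match was present for 9 of the 54 members that have a window (16.7%), namely Akr1c19, Akr1cl, Gclm, Gsta3, Gstm5, Gstm7, Prdx1, Sod1 and Txnrd1, against 3781 of 27025 genes (14%), a share near that of all genes. By windows it was 9 of 67 (13.4%), against 4071 of 32851 (12.4%). A match of letters is a description of the window, and no match says only that these letters are not in it. The match of Prdx1 overlaps the letters TGANTCA, the site of AP-1 proteins, and the others do not. The matches of Gstm7 and Txnrd1 lie in the window of another annotated start of the gene. Shown are the window of Akr1b8, the member with the largest difference, which has no match, and those of the 5 members with a difference of at least 1 log2 unit and a match, with the matching letters in capitals (5′ to 3′ on the strand of the gene).
Akr1b8, chr6:34353896-34354195 (+ strand): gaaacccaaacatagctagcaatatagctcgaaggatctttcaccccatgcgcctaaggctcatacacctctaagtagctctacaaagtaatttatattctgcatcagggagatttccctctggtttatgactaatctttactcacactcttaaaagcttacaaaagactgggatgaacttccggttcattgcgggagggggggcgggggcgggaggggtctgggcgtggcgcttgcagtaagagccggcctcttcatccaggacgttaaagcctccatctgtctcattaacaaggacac
Gsta3, chr1:21240335-21240634 (+ strand): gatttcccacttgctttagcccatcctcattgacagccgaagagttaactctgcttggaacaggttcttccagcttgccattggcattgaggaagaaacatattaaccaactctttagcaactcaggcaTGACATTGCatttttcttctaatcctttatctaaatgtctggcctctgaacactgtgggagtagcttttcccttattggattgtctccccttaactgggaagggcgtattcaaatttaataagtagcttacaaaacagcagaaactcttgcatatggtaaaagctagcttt
Prdx1, chr4:116685349-116685648 (+ strand): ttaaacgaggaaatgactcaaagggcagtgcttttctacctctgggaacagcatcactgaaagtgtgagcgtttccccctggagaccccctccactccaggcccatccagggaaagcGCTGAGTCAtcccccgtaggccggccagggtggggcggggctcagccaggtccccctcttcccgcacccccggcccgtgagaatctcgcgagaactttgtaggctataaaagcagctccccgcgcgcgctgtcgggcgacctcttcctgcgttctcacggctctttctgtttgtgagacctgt
Akr1c19, chr13:4233490-4233789 (+ strand): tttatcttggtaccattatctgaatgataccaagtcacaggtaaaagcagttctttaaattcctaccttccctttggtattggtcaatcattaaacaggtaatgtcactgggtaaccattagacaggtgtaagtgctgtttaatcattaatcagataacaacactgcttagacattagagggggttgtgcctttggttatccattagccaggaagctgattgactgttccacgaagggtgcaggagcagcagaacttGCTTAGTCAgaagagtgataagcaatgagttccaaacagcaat
Gstm5, chr3:107895604-107895903 (+ strand): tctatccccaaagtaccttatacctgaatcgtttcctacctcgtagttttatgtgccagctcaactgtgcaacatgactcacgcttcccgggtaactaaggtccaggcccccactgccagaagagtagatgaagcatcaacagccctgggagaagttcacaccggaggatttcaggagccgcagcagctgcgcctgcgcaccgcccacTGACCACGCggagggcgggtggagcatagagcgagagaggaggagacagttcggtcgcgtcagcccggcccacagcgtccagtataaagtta
Gstm7, chr3:107931565-107931864 (- strand): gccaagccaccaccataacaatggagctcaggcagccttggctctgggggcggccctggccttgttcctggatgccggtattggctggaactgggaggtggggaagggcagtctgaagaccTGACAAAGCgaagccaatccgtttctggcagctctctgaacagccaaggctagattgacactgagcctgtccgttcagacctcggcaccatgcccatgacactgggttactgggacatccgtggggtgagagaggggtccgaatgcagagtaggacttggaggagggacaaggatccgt

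The capitals run on the strand of the gene in Gsta3, Gstm5 and Gstm7 and are the reverse complement of the searched letters in Prdx1 and Akr1c19. Among these 5 members, Gsta3 and Prdx1 were higher in liver than in both other tissues, Akr1c19 was higher in heart, and Gstm5 and Gstm7 were higher in brain, so members with these letters differed in the tissue in which they were high.

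Among the enzymes of glutathione synthesis and reduction, all 4 were called higher in liver than in heart, each by under 1 log2 unit, where 16.3% of all genes were. None of these 4 calls held with only liver replicates 2 and 5 in liver, and Gsr alone kept it when arrays were centred on the endothelial markers (0.33, adjusted p = 0.0423). Gclc, the catalytic subunit of glutamate-cysteine ligase, which takes the limiting step of glutathione synthesis, had log2 values of 8.74, 8.43, 8.93, 8.69 and 8.49 in liver, 9.07, 7.73, 8.09, 7.74 and 7.78 in heart and 7.86, 8.05, 7.92, 8.09 and 7.96 in brain. Heart replicate 1 lay above every other heart array and every liver array, and liver and brain did not overlap. Gclc was higher in liver by 0.57 against heart (SE 0.20, adjusted p = 0.0389) and by 0.68 against brain (adjusted p = 0.0164). Without heart replicate 1 the difference from heart was 0.82 (adjusted p = 1.83e-05), and with only liver replicates 2 and 5 in liver it was 0.38 from heart (adjusted p = 0.453) and 0.48 from brain (adjusted p = 0.308), so that neither was called. Gclm, the modifier subunit that raises the activity of Gclc, gave 8.09, 7.80, 8.14, 7.90 and 7.88 in liver, 7.67, 7.75, 7.45, 7.18 and 7.80 in heart and 8.33, 8.28, 8.66, 8.41 and 8.46 in brain. The 3 tissues did not overlap, with brain highest and heart lowest. Heart minus brain was -0.86 (SE 0.11, adjusted p = 2.7e-05), liver minus brain -0.47 (adjusted p = 0.00518) and liver minus heart 0.39 (adjusted p = 0.0154), so the 2 subunits of the ligase were highest in different tissues. With arrays centred on the endothelial markers, liver minus heart was 0.33 and liver minus brain -0.31 for Gclm, and neither was called (adjusted p = 0.0826 and 0.0919). With only liver replicates 2 and 5, liver minus heart was 0.27 (adjusted p = 0.303).

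Gsr, glutathione reductase, had values of 7.87, 7.64, 8.07, 7.63 and 7.50 in liver, 7.23, 7.31, 7.42, 7.34 and 7.42 in heart and 7.42, 7.17, 7.30, 6.97 and 7.23 in brain. Every liver array lay above every array of the other tissues, whereas heart and brain overlapped. The differences were 0.40 from heart and 0.52 from brain (SE 0.11, adjusted p = 0.00901 and 0.00103), and with only liver replicates 2 and 5 they were 0.22 and 0.35 (adjusted p = 0.245 and 0.0517). Gss, glutathione synthetase, averaged 6.61 ± 0.12 in liver, 6.25 ± 0.05 in heart and 6.58 ± 0.16 in brain (SD, n = 5 each) and was lower in heart than in both other tissues. Both calls of Gss were lost with endothelial centring, at 0.30 for liver minus heart and -0.12 for heart minus brain (adjusted p = 0.0559 and 0.381). Liver minus heart was also lost with only liver replicates 2 and 5 (0.31, adjusted p = 0.0867). Among the liver arrays, Gclc was 8.74, 8.93 and 8.69 in liver replicates 1, 3 and 4 and 8.43 and 8.49 in replicates 2 and 5, and Gsr was 7.87, 8.07 and 7.63 against 7.64 and 7.50. The macrophage markers were high in replicates 1, 3 and 4, and the part of those cells in both results was not tested.

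Glutathione S-transferases of the alpha class, and likewise of the mu class, were high in different tissues. In the alpha class, Gsta3, which in mice conjugates aflatoxin epoxide, was higher in liver, and Gsta4, which conjugates hydroxynonenal, a product of lipid peroxidation, was higher in brain. Gsta3 had values of 7.01, 6.98, 7.57, 7.31 and 6.89 in liver, 6.09, 5.49, 6.30, 5.29 and 5.39 in heart and 5.36, 5.49, 4.99, 5.29 and 5.30 in brain. The liver arrays lay above all others, and heart replicates 1 and 3 were the highest outside liver. Liver minus heart was 1.44 and liver minus brain 1.87 (SE 0.18, adjusted p = 8.24e-06 and 2.89e-07), which are folds of 2.72 and 3.64. With only liver replicates 2 and 5 the differences were 1.23 and 1.65, and both were called. Gsta4 had values of 6.05, 5.81, 6.32, 6.30 and 6.18 in liver, 7.51, 6.93, 7.41, 7.44 and 6.77 in heart and 9.65, 9.12, 9.62, 9.87 and 9.47 in brain. The 3 tissues did not overlap, with brain highest, heart between and liver lowest. Liver was lower than brain by 10.7-fold (log2 difference -3.41, SE 0.16, adjusted p = 1.26e-11) and lower than heart by 2.11-fold (-1.08, adjusted p = 4.97e-05), and heart was lower than brain (-2.33, adjusted p = 5.85e-09).

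In the mu class, which conjugates many electrophiles and lies as 7 neighbouring genes on chromosome 3, brain was higher than both other tissues for 3 of 7 members (all genes 4.7%) and liver for 1 (all genes 10.4%). Gstm7 had values of 5.37, 5.60, 5.52, 5.52 and 5.44 in liver, 5.88, 5.90, 5.93, 5.46 and 5.60 in heart and 8.31, 7.76, 8.61, 7.75 and 8.76 in brain. All brain arrays lay above all others, and liver and heart overlapped. It was lower in liver by 6.71-fold (log2 difference -2.75, SE 0.17, adjusted p = 6.39e-10) and in heart by 5.59-fold (-2.48, adjusted p = 5.94e-09), each against brain. Gstm5, the neighbour of Gstm7, had values of 6.30, 7.02, 6.72, 6.62 and 6.39 in liver, 6.25, 6.35, 6.52, 5.53 and 6.35 in heart and 8.51, 7.53, 8.64, 7.89 and 8.19 in brain. Again all brain arrays were above the rest, and liver and heart overlapped. Its differences were -1.54 for liver minus brain and -1.96 for heart minus brain (SE 0.21, adjusted p = 1.79e-05 and 2.15e-06). Gstm2 went the other way and had values of 8.25, 8.07, 8.52, 8.45 and 8.74 in liver, 6.84, 7.60, 7.40, 6.94 and 7.71 in heart and 6.97, 7.02, 6.84, 6.71 and 7.14 in brain. The liver arrays lay above all others, by 1.11 against heart and 1.47 against brain (SE 0.16, adjusted p = 4.55e-05 and 1.42e-06). Gstm4 was higher in brain by less, with means of 5.66 ± 0.14 in liver, 5.52 ± 0.13 in heart and 6.09 ± 0.19 in brain. Its liver minus brain was -0.27 and not called with endothelial centring (adjusted p = 0.107). Gstm1 was lower in liver than in both, with means of 9.22 ± 0.13 in liver, 9.88 ± 0.17 in heart and 10.03 ± 0.14 in brain. Gstm3 averaged 6.12 ± 0.22 in liver, 6.11 ± 0.16 in heart and 5.85 ± 0.22 in brain and Gstm6 4.14 ± 0.07 in liver, 4.13 ± 0.12 in heart and 4.07 ± 0.17 in brain, and neither was called in any contrast. A further probe set for Gstm3 averaged 5.68 in liver, 6.04 in heart and 6.15 in brain, an order unlike that of the probe set used. Probes of these near relatives may bind RNA of each other, so values within the family are uncertain to that extent.

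**Figure D2:**
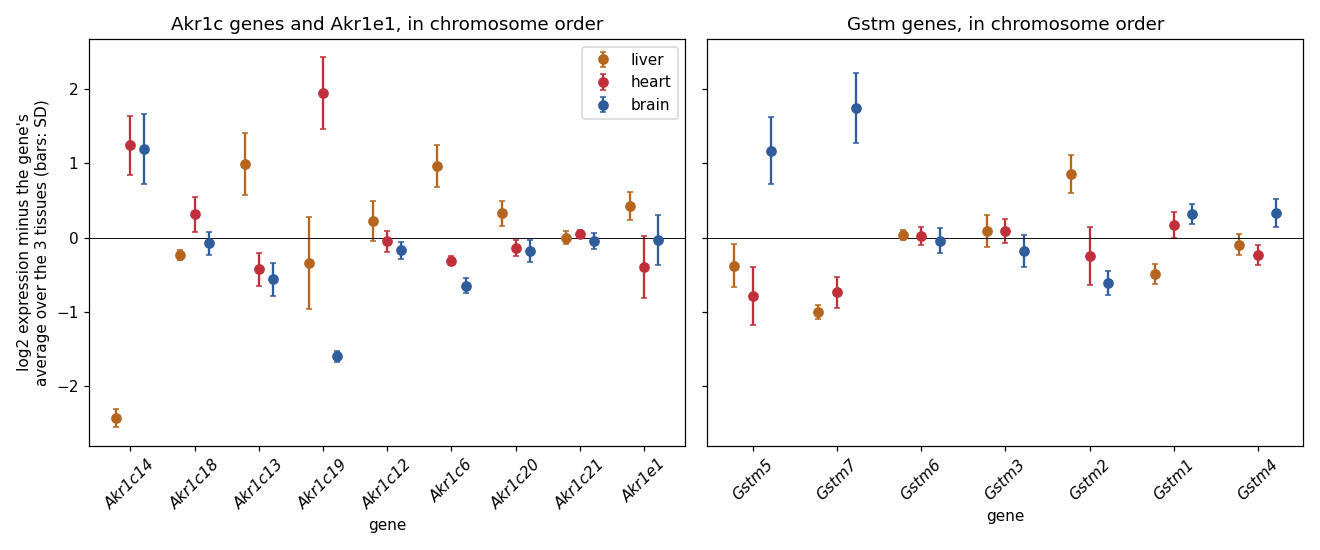
Log2 expression of each gene minus its average over the 3 tissues (points, mean of 5 arrays, bars SD) for the Akr1c genes with Akr1e1 (left) and the Gstm genes (right), in the order of the genes along chromosomes 13 and 3, with liver, heart and brain side by side. In the Akr1c row, Akr1c14 is low in liver, Akr1c19 is high in heart and Akr1c13 and Akr1c6 are high in liver. In the Gstm row, the adjacent Gstm5 and Gstm7 are both high in brain and Gstm2 is high in liver.

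Both pi members, the kappa member and 1 of the 2 omega members were higher in liver than in both other tissues, where 10.4% of all genes were. Gstp1, the abundant cytosolic pi transferase, had values of 11.88, 11.39, 11.70, 11.87 and 11.70 in liver, 9.82, 9.37, 9.35, 9.38 and 9.49 in heart and 10.65, 10.61, 10.03, 10.08 and 10.41 in brain. The 3 tissues did not overlap, with liver highest and heart lowest. Gstp1 differed in liver minus heart by 2.23 (SE 0.14, 4.68-fold, adjusted p = 7e-10), liver minus brain 1.35 (2.55-fold, adjusted p = 4.14e-07) and heart minus brain -0.87 (adjusted p = 0.00014). Kept at liver replicates 2 and 5 alone, the liver differences were 2.07 and 1.19. Gstp3, a relative near Gstp1 on chromosome 19, had values of 7.05, 6.45, 6.35, 5.90 and 6.10 in liver, 5.02, 4.88, 4.75, 5.15 and 5.29 in heart and 5.04, 5.29, 5.11, 5.36 and 5.24 in brain. Liver lay above both other tissues, which overlapped. The differences were 1.35 from heart and 1.16 from brain (SE 0.16, adjusted p = 5.5e-06 and 2.62e-05). Gstk1, the kappa transferase of mitochondria and peroxisomes, had values of 9.14, 9.03, 9.55, 9.28 and 9.15 in liver, 6.63, 7.03, 7.32, 6.78 and 7.04 in heart and 7.72, 7.68, 7.97, 7.96 and 8.44 in brain. As for Gstp1, no tissue overlapped another, and the order was liver, brain, heart. Liver minus heart was 2.26, liver minus brain 1.27 and heart minus brain -0.99 (SE 0.15, adjusted p = 1.93e-09, 2.86e-06 and 9.9e-05). Gsto1, which reduces dehydroascorbate, had values of 6.80, 6.88, 7.26, 6.69 and 6.54 in liver, 6.24, 5.40, 5.77, 5.85 and 5.50 in heart and 5.98, 5.68, 5.30, 5.81 and 6.01 in brain. Liver lay above heart and brain, by 1.08 and 1.08 (SE 0.17, adjusted p = 7.86e-05 and 7.54e-05). Its neighbour Gsto2 averaged 5.37 ± 0.21 in liver, 5.36 ± 0.29 in heart and 5.47 ± 0.21 in brain, and Gstz1, which acts in tyrosine breakdown, 5.28 ± 0.47 in liver, 5.12 ± 0.18 in heart and 5.20 ± 0.30 in brain; neither was called.

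In the theta class, 4 neighbouring genes on chromosome 10, none was higher in liver than in both other tissues, where 10.4% of all genes were. With 4 genes this count cannot be set apart from that share. Gstt1 averaged 5.65 ± 0.26 in liver, 6.21 ± 0.19 in heart and 5.75 ± 0.22 in brain. It was higher in heart than in liver and brain (-0.57 for liver minus heart, adjusted p = 0.0034, and 0.46 for heart minus brain, adjusted p = 0.0228). Gstt3 averaged 5.77 ± 0.35 in liver, 6.57 ± 0.38 in heart and 6.24 ± 0.16 in brain. Its level was lower in liver than in heart (-0.80, adjusted p = 0.00201). With only liver replicates 2 and 5 in liver these liver differences were -0.43 and -0.47, and neither was called (adjusted p = 0.106 and 0.149). Gstt2 averaged 7.78 ± 0.26 in liver, 7.94 ± 0.27 in heart and 7.95 ± 0.20 in brain and Gstt4 5.36 ± 0.16 in liver, 5.46 ± 0.24 in heart and 5.48 ± 0.05 in brain, and no difference was called for either.

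**Figure D3:**
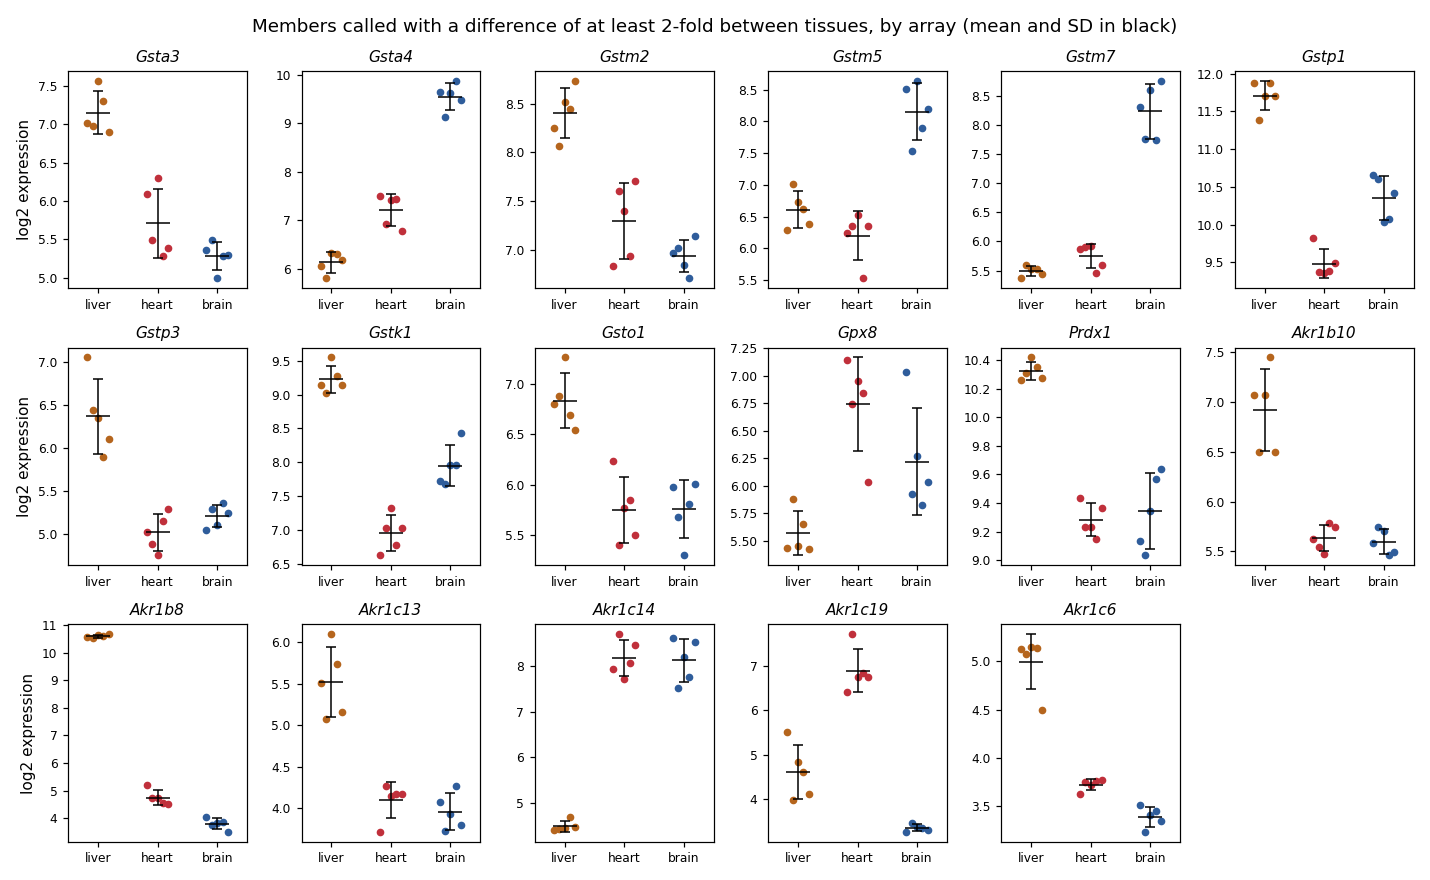
Log2 expression of the 17 members called with a difference of at least 1 log2 unit in any contrast, one point per array and 5 arrays each in liver, heart and brain, with the mean and SD in black and a separate vertical scale for each gene. The liver points of Akr1b8, Gstp1, Gstk1, Prdx1, Gsta3, Gstm2, Gsto1, Gstp3, Akr1b10, Akr1c13 and Akr1c6 lie above all others, those of Akr1c14 and Gsta4 lie below all others, and the brain points of Gsta4, Gstm5 and Gstm7 lie above all others.

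Of the glutathione peroxidases, which reduce peroxides mostly with glutathione, 1 of 8 was higher in liver than in both other tissues and 1 was lower (all genes 10.4% and 5.64%), shares near those of all genes. Gpx4, which reduces lipid peroxides in membranes, was the one that was higher, with means of 10.89 ± 0.34 in liver, 9.94 ± 0.20 in heart and 10.14 ± 0.20 in brain. Its differences were 0.95 from heart and 0.75 from brain (SE 0.15, adjusted p = 8.58e-05 and 0.000826). Its liver array 2, at 10.35, overlapped the brain arrays, and with only liver replicates 2 and 5 the difference from brain was 0.49 (adjusted p = 0.0755). Gpx1, the cytosolic peroxidase, was called higher in liver than in heart (0.51, adjusted p = 0.0225), with means of 10.12 ± 0.28 in liver, 9.62 ± 0.34 in heart and 9.82 ± 0.19 in brain. That difference was 0.25 with only liver replicates 2 and 5 (adjusted p = 0.492) and 0.44 with endothelial centring (adjusted p = 0.0504). Gpx8, an enzyme of the endoplasmic reticulum, had values of 5.43, 5.88, 5.45, 5.65 and 5.42 in liver, 7.15, 6.74, 6.95, 6.84 and 6.03 in heart and 7.03, 5.92, 6.27, 5.83 and 6.03 in brain. Liver lay below heart without overlap, whereas heart and brain overlapped and brain replicate 1 stood above the other brain arrays. Liver minus heart was -1.17 and liver minus brain -0.65 (SE 0.22, adjusted p = 0.000441 and 0.0344). Heart replicate 1 and brain replicate 1, the highest Gpx8 arrays of their tissues, were also the highest in pericyte and smooth muscle markers (7.89 and 7.71), whose part in the result was not tested. Without brain replicate 1, liver minus brain was -0.45 and not called (adjusted p = 0.0886), and heart minus brain was 0.73 and called (adjusted p = 0.00968). The liver minus brain call of Gpx8 was lost in 9 of 25 alternative settings, among them some that left out a single liver array. Gpx6 was called lower in liver than in brain by a small margin (-0.33, adjusted p = 0.0443), with means of 4.39 ± 0.25 in liver, 4.61 ± 0.02 in heart and 4.72 ± 0.22 in brain, and the call was lost in 17 of the 24 alternative settings that tested it. Gpx2, Gpx3, Gpx5 and Gpx7 were not called, with tissue means of 4.81, 5.03, 3.70 and 6.76 in liver, 5.10, 5.19, 3.84 and 6.84 in heart, and 5.15, 4.76, 3.74 and 6.78 in brain.

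Of the peroxiredoxins, which reduce peroxides with electrons from thioredoxin, 2 of 4 were higher in liver than in both other tissues (all genes 10.4%). Prdx1, a cytosolic form, had values of 10.26, 10.31, 10.42, 10.35 and 10.28 in liver, 9.44, 9.23, 9.23, 9.15 and 9.37 in heart and 9.13, 9.04, 9.34, 9.57 and 9.64 in brain. The liver arrays lay close together and above all heart and brain arrays. Liver was higher by 1.04 against heart and 0.98 against brain (SE 0.11, adjusted p = 6.58e-07 and 1.13e-06), and with only liver replicates 2 and 5 by 1.01 and 0.95. Prdx4, the form of the endoplasmic reticulum, averaged 8.86 ± 0.23 in liver, 8.26 ± 0.18 in heart and 8.13 ± 0.13 in brain. It was higher in liver by 0.60 and 0.72 (adjusted p = 0.000568 and 7.35e-05). Further probe sets were also highest in liver for Prdx1, with means of 9.64 in liver, 8.87 in heart and 8.87 in brain, and for Gpx4, with means of 10.40 in liver, 9.45 in heart and 9.66 in brain. Prdx2 averaged 10.61 ± 0.12 in liver, 10.43 ± 0.21 in heart and 10.61 ± 0.22 in brain and the mitochondrial Prdx3 6.78 ± 0.31 in liver, 6.52 ± 0.23 in heart and 6.91 ± 0.24 in brain, with no call. A further probe set for Prdx2 averaged 8.64 in liver, 8.42 in heart and 8.82 in brain, highest in brain. In the thioredoxin group 1 of 5 was higher in liver than in both (all genes 10.4%). This was Txnrd1, the cytosolic reductase, with means of 7.71 ± 0.18 in liver, 7.32 ± 0.22 in heart and 7.10 ± 0.12 in brain. Its differences were 0.39 and 0.60 (SE 0.11, adjusted p = 0.0131 and 0.00038), and the first was 0.33 and not called with endothelial centring (adjusted p = 0.0683). Its substrate Txn1 averaged 11.91 ± 0.08 in liver, 11.76 ± 0.05 in heart and 11.79 ± 0.07 in brain. Its level was not called, nor were the mitochondrial Txn2 (8.21 ± 0.26 in liver, 7.92 ± 0.19 in heart and 8.27 ± 0.25 in brain) and Txnrd2 (5.47 ± 0.16 in liver, 5.55 ± 0.24 in heart and 5.53 ± 0.12 in brain). Txnrd3, a form best known from testis, was called lower in liver than in brain (-0.57, adjusted p = 0.0473), a call lost in 14 of 25 alternative settings.

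No superoxide dismutase differed by 1 log2 unit. Sod1, the cytosolic form, averaged 12.32 ± 0.16 in liver, 12.13 ± 0.14 in heart and 12.13 ± 0.20 in brain and Sod2, the mitochondrial form, 7.73 ± 0.29 in liver, 7.42 ± 0.30 in heart and 7.64 ± 0.20 in brain, with no call in any contrast. Sod3, the extracellular form, averaged 5.80 ± 0.19 in liver, 6.19 ± 0.03 in heart and 5.86 ± 0.21 in brain. It was called higher in heart than in liver (-0.39 for liver minus heart, adjusted p = 0.00832) and in brain (0.33, adjusted p = 0.0353), the second of these lost in 11 of 25 alternative settings. Cat, the catalase of peroxisomes, had values of 9.36, 9.39, 9.31, 9.36 and 9.14 in liver, 8.56, 8.72, 8.81, 8.80 and 8.79 in heart and 9.54, 9.20, 9.13, 9.02 and 9.17 in brain. Heart lay below both other tissues without overlap, and liver and brain overlapped. The differences of Cat were 0.58 for liver minus heart and -0.48 for heart minus brain (SE 0.09, adjusted p = 0.000115 and 0.00126), and liver minus brain, 0.10, was not called (adjusted p = 0.517). Nqo1, which reduces quinones and is a widely used Nrf2 target, had values of 5.25, 5.75, 5.60, 5.55 and 5.76 in liver, 4.97, 4.45, 4.53, 4.41 and 4.67 in heart and 4.60, 4.80, 4.92, 4.64 and 4.91 in brain. Liver lay above heart and brain, which overlapped, and its mean level was among the low ones, under 5.34. The differences were 0.97 and 0.81 (SE 0.12, adjusted p = 5.51e-06 and 4.03e-05), and with only liver replicates 2 and 5 they were 1.15 and 0.98.

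Aldo-keto reductases held the largest differences of all members, in both directions. Akr1b8, which reduces aldehydes and retinal, had values of 10.56, 10.52, 10.63, 10.59 and 10.66 in liver, 5.21, 4.72, 4.72, 4.56 and 4.53 in heart and 4.04, 3.77, 3.85, 3.87 and 3.51 in brain. The 3 tissues did not overlap, the liver arrays lay close together, and heart replicate 1 was the highest array outside liver. Liver minus heart was 5.85 and liver minus brain 6.79 (SE 0.12, adjusted p = 2.1e-16 and 1.7e-17), and heart minus brain was 0.94 (adjusted p = 1.35e-05). With only liver replicates 2 and 5, low in macrophage markers, the differences were 5.84 from heart and 6.79 from brain. The hepatocyte markers averaged 6.96 and 7.38 on those arrays, and the part of hepatocytes in the Akr1b8 level was not tested. Akr1b10, the adjacent gene on chromosome 6, had values of 7.07, 6.50, 7.07, 7.45 and 6.50 in liver, 5.62, 5.54, 5.48, 5.79 and 5.74 in heart and 5.58, 5.74, 5.70, 5.46 and 5.49 in brain. Liver lay above the other tissues, which overlapped. The differences were 1.28 and 1.32 (SE 0.15, adjusted p = 3.13e-06 and 1.83e-06), and the pair may share probes. With only liver replicates 2 and 5 the Akr1b10 differences were 0.87 and 0.90, both called but under 1 log2 unit. Its liver values were higher in replicates 1, 3 and 4, the arrays high in macrophage markers, whose part was not tested. Akr1a1, the broad aldehyde reductase that acts in vitamin C synthesis in mice, averaged 11.53 ± 0.05 in liver, 10.83 ± 0.18 in heart and 11.38 ± 0.18 in brain. Its level was lower in heart than in both other tissues (0.70 for liver minus heart, -0.56 for heart minus brain, adjusted p = 2.85e-05 and 0.000511). It lies beside Prdx1 on chromosome 4, whose level was higher in liver than in both. Akr1e1 averaged 8.14 ± 0.19 in liver, 7.32 ± 0.42 in heart and 7.68 ± 0.34 in brain. It was higher in liver than in heart (0.82, adjusted p = 0.00257), a call lost with only liver replicates 2 and 5 (0.72, adjusted p = 0.0821). Akr7a5 averaged 6.25 ± 0.06 in liver, 6.15 ± 0.11 in heart and 6.24 ± 0.02 in brain with no call.

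The Akr1c genes, which reduce steroids and other ketones, form a row of 8 neighbours on chromosome 13 that continues into Akr1e1. Within the row, Akr1c14 and Akr1c18 had their highest mean in heart, Akr1c13 in liver, Akr1c19 in heart, and Akr1c12, Akr1c6 and Akr1c20 in liver. Akr1c14, a steroid dehydrogenase, had values of 4.41, 4.43, 4.46, 4.70 and 4.47 in liver, 7.93, 8.69, 7.71, 8.05 and 8.45 in heart and 8.61, 7.51, 8.19, 7.76 and 8.52 in brain. Liver lay far below heart and brain, which overlapped. Liver was lower than heart by 12.8-fold (log2 difference -3.67, SE 0.20, adjusted p = 1.68e-10) and lower than brain by 12.4-fold (-3.63, adjusted p = 1.38e-10), while heart minus brain was 0.05 and not called (adjusted p = 0.914). Akr1c19 had values of 5.52, 3.99, 4.84, 4.60 and 4.11 in liver, 6.42, 7.71, 6.75, 6.84 and 6.75 in heart and 3.26, 3.47, 3.36, 3.36 and 3.31 in brain. The 3 tissues did not overlap, with heart highest, liver spread widely between and brain lowest. Heart minus brain was 3.54 (11.6-fold, SE 0.25, adjusted p = 8.39e-09), liver minus heart -2.28 (adjusted p = 1.51e-06) and liver minus brain 1.26 (adjusted p = 0.000838). The last was, in liver replicates 2 and 5 alone, 0.70 and not called (adjusted p = 0.06). The 2 heart arrays with the most cardiomyocyte signal, replicates 1 and 3, had 6.42 and 6.75, and replicate 1 was the lowest of the heart arrays; the part of cardiomyocytes in this level was not tested. Akr1c18, which inactivates progesterone, was also higher in heart than in liver and brain, at a low level, with means of 3.65 ± 0.07 in liver, 4.19 ± 0.23 in heart and 3.80 ± 0.16 in brain.

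Akr1c13 and Akr1c6 were higher in liver. Akr1c13 had values of 5.51, 5.07, 6.10, 5.74 and 5.16 in liver, 3.71, 4.27, 4.15, 4.17 and 4.17 in heart and 4.08, 3.73, 3.93, 4.27 and 3.80 in brain. Liver lay above the others, by 1.42 against heart and 1.56 against brain (SE 0.17, adjusted p = 4.5e-06 and 1.24e-06). With only liver replicates 2 and 5 the differences were 1.02 and 1.16, both called. Akr1c6, a steroid dehydrogenase best known from hepatocytes, had values of 5.12, 5.08, 5.15, 5.14 and 4.50 in liver, 3.62, 3.75, 3.72, 3.76 and 3.77 in heart and 3.51, 3.23, 3.41, 3.45 and 3.34 in brain. No tissue overlapped another, with liver highest and brain lowest. Liver minus heart was 1.27 and liver minus brain 1.61 (SE 0.11, adjusted p = 7.42e-08 and 2.23e-09), and heart minus brain was 0.34 (adjusted p = 0.047), a call lost in 14 of the 24 alternative settings that tested it. Its lowest liver array was replicate 5, which had the highest mean of hepatocyte markers, 7.38, and the part of hepatocytes in its level was not tested. Akr1c20 averaged 4.80 ± 0.16 in liver, 4.33 ± 0.11 in heart and 4.29 ± 0.15 in brain. Its level was higher in liver than in both, but the difference from heart was 0.33 and not called with only liver replicates 2 and 5 (adjusted p = 0.0788). Akr1c12 averaged 3.40 ± 0.27 in liver, 3.14 ± 0.14 in heart and 3.01 ± 0.11 in brain. It was higher in liver than in brain (0.40, adjusted p = 0.0162), and with only liver replicates 2 and 5 that difference was 0.13 and not called (adjusted p = 0.534). Its liver values were 3.40, 3.12, 3.77, 3.56 and 3.16, highest in replicates 3, 4 and 1, the arrays high in macrophage markers, whose part was not tested. Akr1c21, Akr1cl and Akr1d1 were low and not called in any contrast, with means of 3.35 ± 0.09 in liver, 3.40 ± 0.06 in heart and 3.30 ± 0.11 in brain for Akr1c21, of 3.89 ± 0.14 in liver, 3.91 ± 0.18 in heart and 3.96 ± 0.13 in brain for Akr1cl, and of 3.93 ± 0.24 in liver, 3.81 ± 0.18 in heart and 3.78 ± 0.13 in brain for Akr1d1, which acts in bile acid synthesis in hepatocytes. All 3 had mean levels over all arrays under 5.34, and so did Akr1c6, Akr1c12, Akr1c13, Akr1c18, Akr1c19 and Akr1c20. In a family of close relatives small differences are uncertain.

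**Figure D4:**
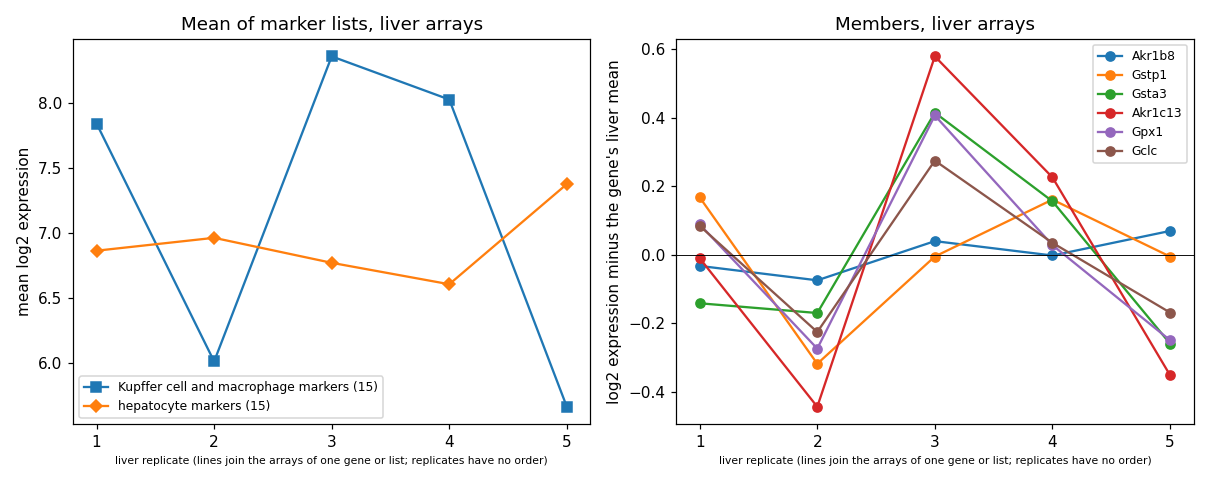
Mean log2 expression of 15 Kupffer cell and macrophage markers and of 15 hepatocyte markers on the 5 liver arrays (left), and log2 expression of 6 members on the same arrays as the difference from the mean of the gene in liver (right); lines only join the points of one gene or list. Gclc, Gpx1, Akr1c13 and Gsta3 lie below their means in liver replicates 2 and 5, where the macrophage markers are low, while Akr1b8 stays within 0.1 of its mean on every array.

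Gclc, Gpx1 and Akr1c13 were below their liver means in replicates 2 and 5, as the plot of the liver arrays shows, and the macrophage markers were low in the same arrays. The share of macrophage RNA in these members' liver values was not tested. Of the 79 differences called over the 60 members, 17 were lost with only liver replicates 2 and 5 in liver, a setting that also leaves fewer arrays, and 62 were kept.

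Nrf2, its regulators and its known targets outside the members formed a list chosen with earlier results of these data known. Genes of this list were also more often higher in liver than all genes were. Of 29 genes measured, 10 (34.5%) were higher in liver than in both other tissues and 3 (10.3%) lower, against 10.4% and 5.64% of all genes. The 10 were Nfe2l2 itself, its partner Mafg, the repressor Bach1, and Hmox1, Blvrb, Ftl1, Srxn1, Osgin1, Pgd and Tkt. The 3 lower in liver were Ephx1, an epoxide hydrolase, and the small Maf genes Maff and Mafk. Nfe2l2 had values of 10.49, 10.55, 10.68, 10.63 and 10.63 in liver, 10.02, 9.76, 9.91, 9.99 and 10.26 in heart and 9.82, 10.10, 9.78, 9.82 and 9.79 in brain, with liver above both other tissues on every array. It was higher in liver by 0.61 and 0.73 (SE 0.09, adjusted p = 5.94e-05 and 6.03e-06). Keap1, the sensor that marks Nrf2 for breakdown, averaged 6.85 ± 0.19 in liver, 6.69 ± 0.10 in heart and 6.88 ± 0.13 in brain. Its level was not called. Hmox1, which breaks down haem, averaged 9.04 ± 0.19 in liver, 7.20 ± 0.46 in heart and 7.64 ± 0.33 in brain. Blvrb, a biliverdin reductase, averaged 8.29 ± 0.19 in liver, 6.81 ± 0.27 in heart and 7.09 ± 0.13 in brain. Ftl1, the ferritin light chain, averaged 11.51 ± 0.16 in liver, 9.63 ± 0.50 in heart and 9.84 ± 0.24 in brain. Each of these 3 genes was higher in liver than in both by more than 1 log2 unit. All 3 are known also from macrophages that recycle haem iron, whose markers were high in liver replicates 1, 3 and 4. In replicates 2 and 5, lower in those markers, the liver values were 8.75 and 8.96 for Hmox1, 8.11 and 8.19 for Blvrb and 11.22 and 11.57 for Ftl1, each above the means of heart and brain. The macrophage marker means of these 2 arrays, 6.01 and 5.66, were also above those of the heart and brain arrays (5.23 to 5.54). The part of macrophages in these levels was not tested. Aldh1a1, a retinal dehydrogenase, averaged 6.17 ± 0.25 in liver, 6.10 ± 0.51 in heart and 9.55 ± 0.27 in brain and Abcc4, an exporter of conjugates, 7.53 ± 0.35 in liver, 7.43 ± 0.29 in heart and 10.07 ± 0.16 in brain, both higher in brain. Ephx1 averaged 7.35 ± 0.45 in liver, 8.74 ± 0.19 in heart and 9.11 ± 0.27 in brain.

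Other genes of glutathione handling (transporters, degrading enzymes, glutaredoxins, NADPH sources) divided between tissues. Of 37 measured, 6 (16.2%) were higher in liver than in both and 5 (13.5%) higher in brain than in both, against 10.4% and 4.7% of all genes, and 5 (13.5%) were lower in heart than in both, against 3.27%. Slc1a1, a transporter of glutamate and cysteine, averaged 5.15 ± 0.21 in liver, 7.10 ± 0.29 in heart and 10.16 ± 0.21 in brain, and the tissues differed by -5.02 for liver minus brain (adjusted p = 8.48e-15) and -3.06 for heart minus brain (adjusted p = 1.92e-11). Slc3a2, the heavy chain of the cystine transporter, averaged 9.89 ± 0.22 in liver, 8.94 ± 0.41 in heart and 10.95 ± 0.20 in brain. Lap3, a peptidase that cleaves cysteinylglycine, averaged 7.17 ± 0.40 in liver, 7.61 ± 0.24 in heart and 8.48 ± 0.17 in brain. All 3 were highest in brain. Abcc3, a pump for conjugated organic anions, averaged 6.93 ± 0.49 in liver, 5.22 ± 0.12 in heart and 5.15 ± 0.17 in brain and Idh1, a cytosolic source of NADPH, 9.88 ± 0.20 in liver, 8.42 ± 0.21 in heart and 8.51 ± 0.21 in brain, and both were higher in liver than in both other tissues.

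Partners of thioredoxin and enzymes that repair oxidised methionine or form disulfides were more often higher in liver. Of 26 measured, 11 (42.3%) were higher in liver than in both, against 10.4% of all genes, while the liver was lower than both for none of them in limma's test. Brain was higher than both for 3 (11.5%, all genes 4.7%), namely Msrb2, Sesn1 and Sesn3. Sesn3 held the largest called difference of the list. Qsox1, a sulfhydryl oxidase, averaged 8.17 ± 0.42 in liver, 7.09 ± 0.29 in heart and 7.34 ± 0.08 in brain, and Txnip, which binds and inhibits thioredoxin, 11.93 ± 0.17 in liver, 11.69 ± 0.17 in heart and 10.61 ± 0.24 in brain, lower in brain than in both. Selenoproteins and their synthesis, the class to which several Gpx and Txnrd members belong, had 6 of 23 (26.1%) higher in liver than in both (all genes 10.4%). Selenop, the carrier of selenium, averaged 12.16 ± 0.17 in liver, 10.70 ± 0.12 in heart and 11.64 ± 0.11 in brain and Selenoh, a nuclear selenoprotein, 9.37 ± 0.23 in liver, 7.87 ± 0.18 in heart and 7.78 ± 0.24 in brain. Lrp8, a receptor that takes up the carrier, averaged 5.44 ± 0.25 in liver, 5.65 ± 0.12 in heart and 8.63 ± 0.29 in brain. It was higher in brain (-3.19 for liver minus brain and -2.98 for heart minus brain, adjusted p = 2.89e-12 and 2.12e-11). Among other carbonyl, quinone and xenobiotic enzymes, 8 of 28 (28.6%) were lower in heart than in both, against 3.27% of all genes. Heart was also higher than both for 4 (14.3%, all genes 3.73%), and 5 (17.9%, all genes 10.4%) were higher in liver than in both. Nqo2, the relative of Nqo1, averaged 9.69 ± 0.16 in liver, 6.85 ± 0.29 in heart and 7.0 ± 0.16 in brain. Its level was higher in liver by 2.83 and 2.68 (adjusted p = 8.95e-12 and 1.26e-11). Dhrs3, which reduces retinal, averaged 11.55 ± 0.17 in liver, 10.50 ± 0.22 in heart and 9.14 ± 0.54 in brain. Adh1, an alcohol dehydrogenase, averaged 7.63 ± 0.30 in liver, 9.85 ± 0.42 in heart and 7.82 ± 0.47 in brain, highest in heart, and Fmo2, a flavin monooxygenase, 7.85 ± 0.78 in liver, 10.06 ± 0.34 in heart and 9.77 ± 0.18 in brain, lowest in liver. Of 16 genes that make superoxide or peroxide, 3 (18.8%) were higher in liver than in both and 3 (18.8%) higher in brain than in both, against 10.4% and 4.7% of all genes. Maoa and Maob, the monoamine oxidases, which release peroxide, averaged 5.60 ± 0.43 in liver, 7.95 ± 0.06 in heart and 10.91 ± 0.18 in brain for Maoa and 4.69 ± 0.23 in liver, 4.95 ± 0.25 in heart and 7.95 ± 0.33 in brain for Maob. Cybb, the oxidase subunit of phagocytes, had values of 8.45, 5.46, 8.97, 8.71 and 5.72 in liver, against means of 5.48 in heart and 4.78 in brain, and its high liver arrays were replicates 1, 3 and 4, those high in macrophage markers.

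**Figure D5:**
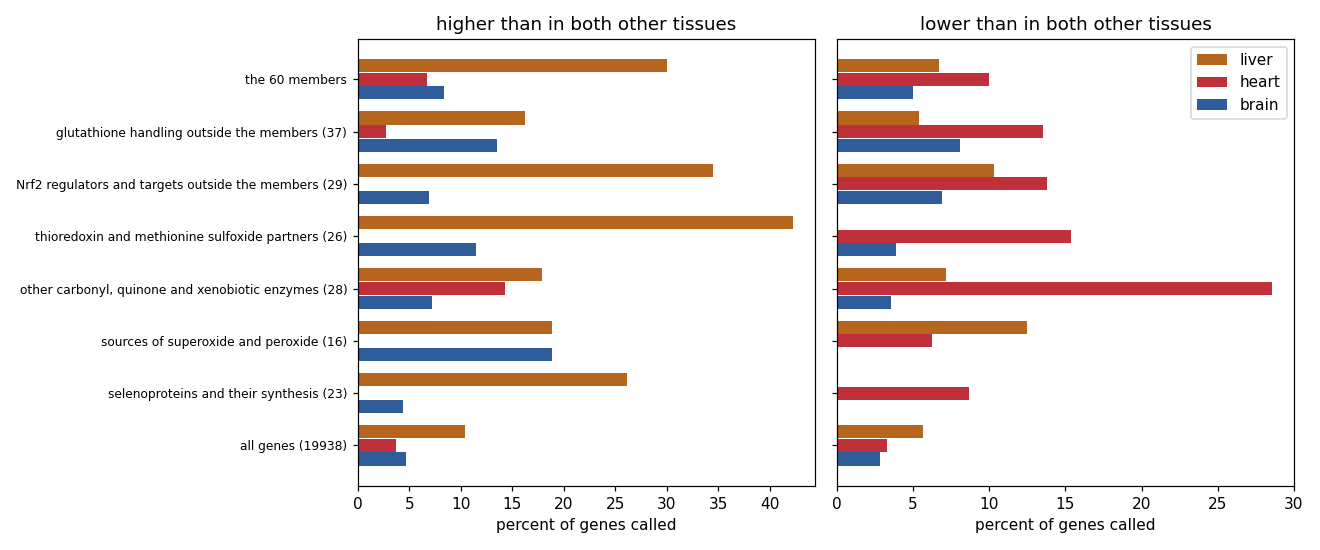
Percent of genes called higher (left) or lower (right) in liver, heart or brain than in both other tissues, for the 60 members, 6 related gene lists (number of genes measured in brackets) and all 19938 genes. The liver bar of the members, 30%, stands above that of all genes, 10.4%, and the thioredoxin partners reach 42.3%.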

How the data were processed

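Amplified RNA (5 ng of total RNA per sample) was hybridised to Affymetrix mouse gene arrays. The values deposited by the authors are log2 expression of 35556 probe sets on each of 15 arrays. RMA made them, per the submitters' processing notes, with Affymetrix Power Tools; the versions and the genome build were not given in the sources used here. RMA evens out the arrays and compresses large differences, so folds are likely to understate differences in RNA. Precision is limited by having 5 arrays for each tissue.

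GEO's annotation of the array gave 1 gene symbol to 21789 probe sets, several to 1621 and none to 12146. Only those with 1 symbol were used, and for 999 genes with several probe sets the one with the highest mean was kept, which left 19938 genes. Tissue means were estimated in a single linear model over the 15 arrays (limma 3.58.1, R 4.3.3, moderated by eBayes, with 12 residual and 4.75 prior degrees of freedom). Benjamini-Hochberg adjustment ran over all genes in each contrast. The fit was checked on simulated data. Groups came from the sample titles. Genes said to be higher or lower than in both other tissues passed in both contrasts of that tissue.

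Array values are given for members called with a log2 difference of at least 1 in any contrast and for Akr1b8, Gclc, Gclm, Gsr, Cat and Nqo1, and means for other members. At most 6 genes of each related list are named, from those with the largest called differences, plus Nfe2l2 and Keap1. The members, the related lists and the marker lists were chosen with earlier results of these data known. Cell type lists not described in the text (cholangiocyte, stellate cell, neuron, astrocyte, oligodendrocyte, red cell, platelet, granulocyte and lymphoid) had mean log2 levels on single arrays of 4.49 to 6.86. This range pools the tissues. Lymphoid markers averaged 5.19 in liver, 4.80 in heart and 4.62 in brain. Liver was higher than both other tissues for 2 of 8 lymphoid and 2 of 9 stellate cell markers (all genes 10.4%). It was also higher for 1 of 5 cholangiocyte, 1 of 5 platelet and 1 of 9 oligodendrocyte markers. Liver was lower than both for 1 stellate cell marker (all genes 5.64%). The part of these cells was not tested.

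Alternatives were a replicate block, an intensity trend, array weights, a fit of 2 tissues alone, a repeated quantile normalization, centring on endothelial markers, leaving out genes with a mean level under 5.34, averaged probe sets, a size rule, leaving out each array or heart replicates 1 and 3, and, added after seeing the data, keeping only liver replicates 2 and 5 in liver. Promoter windows are from RefSeq, build GRCm38.p6. The scanner files were not used here.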

Additional observations from a re-analysis of the deposited data

Results flagged for a closer look

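Single arrays that stood apart from the other 4 of their tissue were looked for in each member and tissue by Dixon's test (critical value 0.71 for 5 samples). Of 180 groups, 18 held such an array, where chance gives about 1 in 20.

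Heart replicate 1, which had the highest cardiomyocyte, fibroblast and pericyte marker means of the heart arrays, was the stray array for 5 members. It was high for Gclc at 9.07 (others 7.73 to 8.09), Gstp1 at 9.82 (others 9.35 to 9.49), Txnrd1 at 7.71 (others 7.16 to 7.29) and Akr1b8 at 5.21 (others 4.53 to 4.72), and low for Akr1c13 at 3.71 (others 4.15 to 4.27). The part of other cells in these values was not tested.

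Brain replicate 1, which had the highest choroid plexus and pericyte marker means of the brain arrays, was high for Gsto2 at 5.84 and Sod3 at 6.23 and low for Txnrd2 at 5.33. Brain replicate 5 was high for Prdx2 at 10.99 and Akr7a5 at 6.28, and brain replicate 4 was high for Gstm6 at 4.36. In liver, replicate 5 was low for Akr1c6 at 4.50 (others 5.08 to 5.15), replicate 4 was low for Txnrd1 at 7.39 (others 7.77 to 7.81) and high for Akr1c14 at 4.70, and replicate 2 was low for Gstt4 at 5.08. Heart replicate 2 was low for Gstm3 at 5.83 and high for Sod3 at 6.25, and heart replicate 4 was low for Gstm5 at 5.53.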

How the results depend on the processing

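Of the 79 differences called over the 60 members, 54 were kept in every one of the 25 alternative settings that tested them (24 for members of low level), 25 were lost in at least 1 and 0 were reversed. Leaving out genes with a mean level under 5.34 left 63 of the 79 differences, all kept. The settings that lost the most were keeping only liver replicates 2 and 5 in liver (17, chosen after seeing the data, with fewer arrays) and centring on the endothelial markers (11). Those lost most often were Gpx6 (liver minus brain, 17 settings), Txnrd3 (liver minus brain, 14), Akr1c6 (heart minus brain, 14), Gclc (liver minus heart, 11) and Sod3 (heart minus brain, 11).

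Requiring a difference of at least 1 log2 unit, which by construction calls fewer, gave 11 members higher and 4 lower for liver minus heart, 11 and 4 for liver minus brain and 1 and 3 for heart minus brain. Against both other tissues it gave 10 higher and 2 lower in liver, 1 and 0 in heart and 3 and 1 in brain. Centring on the endothelial markers moved the median of all genes to -0.09 for liver minus heart, 0.16 for liver minus brain and 0.25 for heart minus brain. It gave 5 members lower for liver minus brain (all genes 6.92%). For heart minus brain it gave 17 higher, a share near that of all genes (30.2%). Against both other tissues, it gave 3 higher and 9 lower in brain. Shares of all genes for these brain counts under centring are not given, so the counts cannot be set apart from the shift in the median. A repeated quantile normalization gave 3 higher for heart minus brain and 2 higher in heart than in both. Shares of all genes under that normalization are not given, so these counts cannot be set against them, and the cause was not tested. Leaving out those genes of low level gave 3 higher for heart minus brain, 2 higher in heart than in both and 1 lower in brain than in both, since 16 members then had no test. Shares of all genes are not given for that setting either.

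When each array was left out in turn, liver minus heart was called higher for 22 to 25 members and lower for 9 to 9, liver minus brain higher for 20 to 21 and lower for 7 to 11, and heart minus brain higher for 3 to 7 and lower for 10 to 10. Liver was higher than both for 17 to 19 and lower for 3 to 5, heart higher for 2 to 5 and lower for 6 to 6, and brain higher for 5 to 5 and lower for 2 to 3. The count of 3 for heart minus brain and that of 2 for heart came without heart replicate 2, brain replicate 2 or brain replicate 3. For the fits that left out an array, shares of all genes are not given.

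With the replicate number as a block (replicate block), liver minus brain was lower for 11 members and liver lower than both for 5, and no call was lost. Same-numbered samples of different tissues correlated in their deviations at r = -0.0005 to 0.204, and 6 of 15 pairs were over 0.1. Samples of different number and tissue correlated at r = -0.167 to 0.126. Of the 15 arrays, 8 correlated best with their own number in both other tissues. Same-numbered samples were thus often more alike than others, and the main fit held no term for the replicate number, whereas the block did. Depth has no count on arrays, and low levels limit the 16 members under 5.34.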
